A study of Gallus gallus with 15 samples.

Results

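The breast muscle of 10 female Korat chickens (KRC) at 10 weeks of age was compared: 5 birds whose feed held 1% β-alanine (group B) and 5 birds given the same basal feed with nothing added (group A). Each library came from 1 bird of 1 cage, so the 5 birds of a group are separate animals, and they are called B1 to B5 and A1 to A5 after the sample labels. The 2 diets make up 10 of the 15 libraries of the series, and the 5 birds fed L-histidine did not enter the comparison. The supplement was given from 4 weeks of age until sampling, and the KRC is a cross of Thai indigenous males with a female breeder line. The table holds whole-number counts for 17475 genes, of which 15635 had at least 1 count in the 10 birds and 11564 had enough counts to be tested.

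β-Alanine is a non-proteinogenic amino acid that muscle takes up and that carnosine synthase joins to L-histidine, which gives carnosine. Carnosine and its methylated form anserine buffer acid in working fibres, and white breast muscle, which burns glucose quickly, is rich in both. The question was which genes of the muscle differ in expression when birds receive the precursor in their feed.

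Levels are given as normalized FPKM, which is the count of a gene set against its exonic length and the size of the library, after scaling of the libraries by relative log expression (RLE). A log2 fold change is group B over group A and is printed ± its standard error. The quasi-likelihood test of edgeR was run on the 10 birds, with Benjamini-Hochberg adjustment over the 11564 genes. A gene counted as called when the adjusted p was under 0.05 and the groups differed at least 1.5-fold, and the p before adjustment is called the nominal p. Every gene was also looked at bird by bird: the groups of a gene are said not to overlap where all 5 birds of group B lie above, or all 5 below, all 5 birds of group A.

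The total count was 13957490 to 15381547 in group B and 10620229 to 14553374 in group A, where A4 was the shallowest library. The markers of fast muscle fibres, which the labelled tissue should hold, summed to 79001 to 105624 normalized FPKM in group B and 94627 to 150451 in group A. Libraries A3 and A4 stood apart from the other 8 on the first principal component (36.1% of the variance), at 37.3 and 63.6 against -24.2 to 4.31. In these 2 libraries short genes were over-represented: the deviation of a gene from its mean correlated with exonic length at a Spearman coefficient of -0.52 and -0.40 across genes, against -0.09 to 0.34 in the other libraries. The study's own read statistics give A3 and A4 the lowest mapping rates and the highest GC contents of the libraries compared. Fits without A3 and A4, and a fit with the gene length trend removed, are given below. What made these 2 libraries differ was not tested. A3 also held transcripts of slow fibres, A5 transcripts of fat cells and B2 transcripts of liver and plasma proteins, and values without these libraries stand beside the results that they moved most.

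No gene passed the test of edgeR, whose smallest adjusted p was 0.171. At a nominal p under 0.05, group B was higher for 485 genes (4.19% of the genes tested) and lower for 644 (5.57%), of which 373 and 406 differed at least 1.5-fold. These shares depend on the scaling. With library totals alone, in place of RLE, the log2 fold change of the median gene was 0.18 instead of -0.02, 927 genes were higher and 168 lower at a nominal p under 0.05, and 205 higher and 35 lower genes had groups that did not overlap. The RLE-scaled size of A4 was 0.528 of the mean of the libraries, lower against that mean than its total count was, and all values below are relative to the RLE-scaled libraries. Statements below on whether groups overlap refer to this scaling. With library totals, the groups of SERPINH1, GSTT1, OSGIN1 and PGAM1 overlap, though they do not with RLE. With RLE, the groups did not overlap for 202 genes, of which 102 were higher (0.882%) and 100 lower (0.865%) in group B. DESeq2, the package named in the methods of the study, called 33 genes higher (0.277% of 11915 genes) and 42 lower (0.352%) on the same counts at the same thresholds. The study itself reported more genes in each direction for these 2 groups, and the reason for the difference was not tested. limma-voom called 0 genes, and 13 when each library was given a weight. Of the 75 genes of DESeq2, edgeR tested 74, and all 74 had a nominal p under 0.05 with an adjusted p of 0.171 to 0.383. Differences between the groups are therefore described as values below, and "higher" and "lower" refer to the fitted means of the 5 birds. Counts of list members at a nominal p under 0.05 with all birds are to be read beside the 4.19% and 5.57% of all genes. These shares do not hold for the fits with birds left out. Without A3 and A4, 424 of 11899 genes were higher and 450 lower at a nominal p under 0.05. Without B2, A3, A4 and A5, where A1 and A2 are the only controls, 374 of 12033 were higher and 343 lower. Whether a smaller list count in these fits comes from the birds left out or from having fewer birds was not tested.

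**Figure D1:**
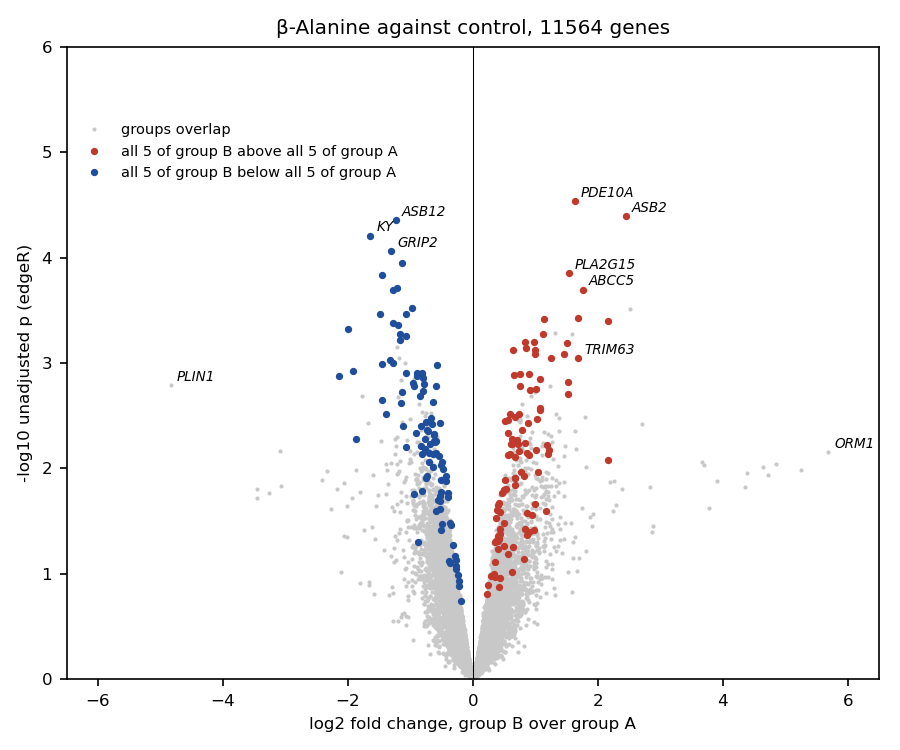
Log2 fold change of group B over group A (x axis) against -log10 of the unadjusted p from edgeR (y axis) for the 11564 genes tested. Dark points are the 102 higher (red) and 100 lower (blue) genes whose birds do not overlap between the groups, and none of the genes had an adjusted p under 0.171.

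The gene with the smallest p was PDE10A, a phosphodiesterase that hydrolyses cAMP and cGMP, on chromosome 3 from 43094027 to 43443909 of the GRCg6a build. PDE10A had 9.69, 9.34, 7.51, 4.60 and 12.3 normalized FPKM in birds B1 to B5, against 3.72, 2.28, 2.02, 3.57 and 2.50 in birds A1 to A5. All birds of group B lay above all birds of group A, and the log2 fold change was 1.63 ± 0.26 (edgeR adjusted p = 0.171). Other phosphodiesterases pointed the same way in part. PDE4D, a cAMP-specific enzyme, had 5.41, 2.95, 2.79, 3.82 and 3.50 in group B against 2.23, 2.67, 1.24, 1.76 and 1.92 in group A, at a log2 fold change of 0.91 ± 0.23, again without overlap. Of 19 genes tested on the list of cyclic nucleotide enzymes, 4 were higher in group B at a nominal p under 0.05 and 0 lower (PDE10A, PDE4D, PDE1B and PDE4C), while the median log2 fold change of the list was 0.05 beside -0.02 for all genes. Without A3 and A4, 2 were higher and 0 lower, and the median was -0.11. ABCC5, a membrane exporter that carries cyclic nucleotides among other anions, had 7.42, 16.4, 6.28, 6.05 and 6.65 normalized FPKM in group B and 3.35, 2.60, 3.63, 1.14 and 1.9 in group A. Its groups did not overlap, and its log2 fold change of 1.76 ± 0.35 was 1.38 without B2, the bird with the highest value.

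Adaptors of ubiquitin ligases, which choose the proteins that the ligase marks, were found at both ends of the ranking. ASB2, whose known targets in muscle include filamins, had 20.9, 42.7, 7.04, 14.1 and 30.1 normalized FPKM in group B, against 3.48, 4.44, 6.65, 3.08 and 3.40 in group A. The lowest bird of group B, B3, was close to the highest of group A, A3, so the groups were separated by a narrow gap at a log2 fold change of 2.45 ± 0.41. ASB12, a relative of ASB2 on chromosome 4 from 11651772 to 11659535, went the other way with 4.38, 4.36, 5.74, 5.37 and 6.62 in group B against 9.23, 13.8, 8.84, 15.6 and 15.0 in group A, at a log2 fold change of -1.24 ± 0.21 (edgeR adjusted p = 0.171). ASB5 had a log2 fold change of 0.76 ± 0.19 with 18.4 to 31.6 in group B and 11.4 to 16.8 in group A. SPSB1, an adaptor with a SPRY domain and a SOCS box, had 25.3, 31.9, 20.5, 21.0 and 16.3 in group B against 12.7, 6.69, 15.7, 8.55 and 9.16 in group A and a log2 fold change of 1.12 ± 0.25. On the list of SOCS-box adaptors, 4 of 22 genes tested were higher and 1 was lower at a nominal p under 0.05, and the median was -0.09. Among 17 Kelch-type adaptors, 3 were higher and 4 lower, with 0 genes whose groups did not overlap, and 1 was higher and 2 lower without A3 and A4. TRIM7, a ubiquitin ligase known to bind glycogenin, the protein primer of glycogen, had 5.44, 2.84, 5.50, 7.62 and 3.97 in group B and 12.6, 15.9, 10.4, 13.6 and 8.98 in group A, at a log2 fold change of -1.27 ± 0.25.

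The FoxO transcription factors drive genes of muscle protein breakdown when insulin signaling is low, and FoxO signaling is a pathway that the study itself named for these birds, so the direction of this list is not independent evidence. Of 28 genes tested on the list of FoxO factors, their targets and atrophy ligases, 9 were higher in group B at a nominal p under 0.05 and 0 lower, and the median log2 fold change was 0.49. The count was 7 and 0 without A3 and A4. It was 8 and 0 without B2 and 5 and 0 without B2, A3, A4 and A5, where the median was 0.28. TRIM63, the muscle ring finger ligase MuRF1, had 682, 407, 418, 389.7 and 344 normalized FPKM in group B, against 222, 92.1, 255, 66.5 and 62.4 in group A. The lowest bird of group B lay above the highest of group A, and A2, A4 and A5 were under 100. FOXO1 had 6.87, 3.21, 1.69, 5.53 and 2.86 in group B against 2.61, 1.91, 1.21, 0.955 and 1.24 in group A, and its groups overlapped because B3 lay below A1 and A2. FOXO3 had 68.0, 53.3, 44.8, 55.5 and 41.9 in group B and 55.8, 37.4, 32.6, 16.6 and 19.2 in group A, at a log2 fold change of 0.71 ± 0.30 that was 0.18 without the 4 libraries. PDK4, a kinase that switches off pyruvate dehydrogenase, had 217, 479, 113, 192 and 319 in group B against 183, 125, 111, 41.0 and 22.3 in group A. Its log2 fold change of 1.45 ± 0.51 was 0.46 without the 4 libraries, as A4 and A5 were its lowest birds. SESN2, a stress-induced brake on mTOR, had 5.02, 10.6, 5.61, 2.65 and 5.56 in group B and 1.96, 1.05, 5.96, 2.87 and 2.64 in group A, where A3 lay far above the other controls. KLHL24 had a log2 fold change of 1.17 ± 0.40 with 3.01 to 10.8 in group B and 1.59 to 6.16 in group A. Within group A, A1 and A3 held higher levels of TRIM63, FOXO3 and PDK4 than A4 and A5.

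**Figure D2:**
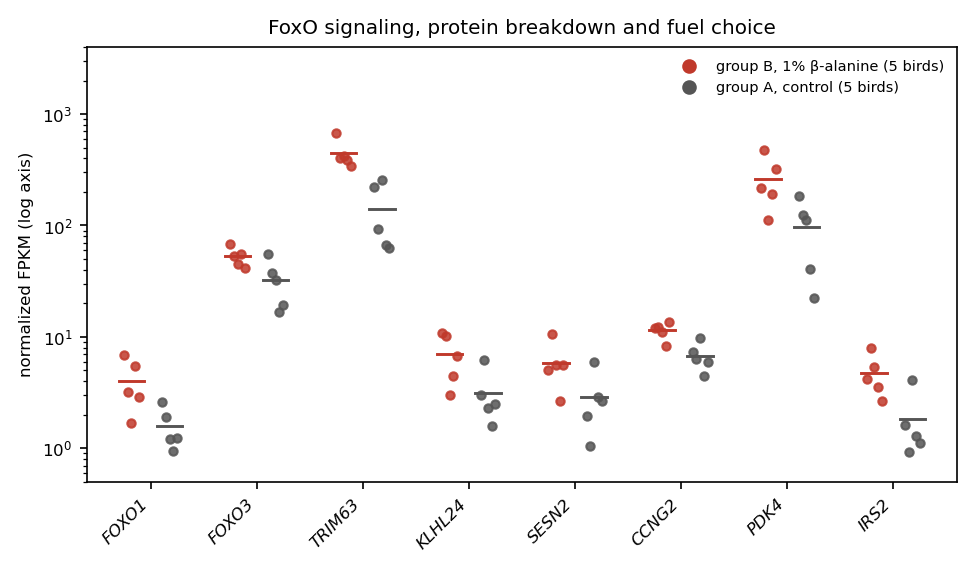
Normalized FPKM (log axis) of 8 genes of FoxO signaling, protein breakdown and fuel choice in each bird, with group B in red to the left of group A in grey and a bar at each group's mean. TRIM63 is the gene of this set whose birds do not overlap between the groups, and A4 and A5 are the lowest birds of PDK4.

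In the list of lysosomal and related genes, single members were high in group B rather than the list as a whole. PLA2G15, the lysosomal phospholipase, had 97.9, 89.2, 67.6, 60.8 and 50.0 normalized FPKM in group B and 43.1, 22.3, 21.6, 13.1 and 25.9 in group A, without overlap. CTSV, a cysteine cathepsin on chromosome Z from 41420069 to 41425489, had 92.1, 122, 57.1, 59.9 and 73.2 in group B against 39.8, 32.4, 50.8, 25.8 and 34.9 in group A, also without overlap. RAB9A, a GTPase of the traffic between late endosomes and the Golgi, had 9.57, 10.8, 8.55, 6.01 and 6.39 in group B and 4.80, 5.0, 3.78, 2.51 and 4.54 in group A, at a log2 fold change of 0.99 ± 0.23. NPL, an enzyme that splits sialic acid, had 1.32, 0.758, 1.09, 0.764 and 0.998 in group B and 0.636, 0.293, 0.419, 0.201 and 0.495 in group A, at a log2 fold change of 1.26 ± 0.30. Of 44 genes tested on this list, 7 were higher at a nominal p under 0.05 and 0 lower. The groups of 4 did not overlap (PLA2G15, CTSV, RAB9A and NPL), but 25 of the 44 had a negative log2 fold change and the median was -0.02. The median was 0.14 without A3 and A4, with 5 higher and 0 lower, and without B2 the count was 7 and 3. Among 36 autophagy genes, 2 were higher (5.56%, near the 4.19% of all genes) and 0 lower. The 2 were ATG7 and ATG14, with log2 fold changes of 0.50 ± 0.18 and 0.47 ± 0.18. This count was 2 and 1 without B2, and 0 and 2 without B2, A3, A4 and A5. None of the 31 proteasome subunits had a nominal p under 0.05 with edgeR, DESeq2 called 0 of them, and 26 of them had a negative log2 fold change. Their median of -0.16 had the opposite sign without A3 and A4, at 0.16, where 1 was higher and 0 lower. Of 11 calpains and their partners, 1 was higher and 1 lower at a nominal p under 0.05 (9.09% each way). CAPNS2, a small calpain subunit, was higher and CAPN1, the μ-calpain that acts on muscle after slaughter, was lower. CAPNS2 had few reads, with counts of 17, 29, 19, 18 and 41 in B1 to B5 and 5, 7, 5, 5 and 12 in A1 to A5. Its log2 fold change was 1.52 ± 0.40. CAPN1 had 20.0, 22.1, 22.5, 30.4 and 30.7 in group B and 35.1, 24.6, 42.8, 65.2 and 30.8 in group A, and its log2 fold change of -0.66 ± 0.25 was -0.26 without A3 and A4.

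**Figure D3:**
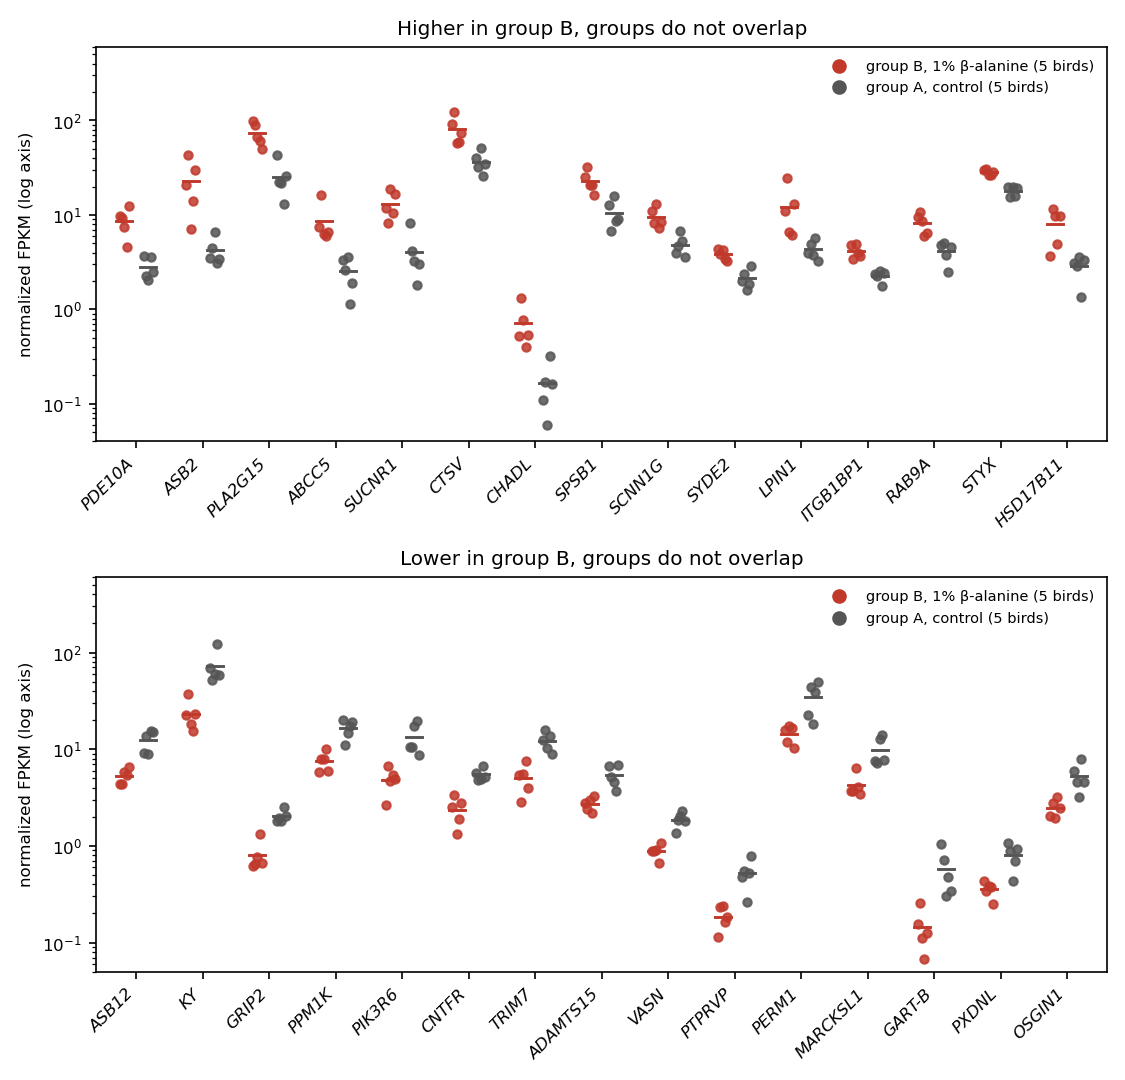
Normalized FPKM (log axis) in each bird for the 15 genes higher (upper panel) and the 15 genes lower (lower panel) in group B that have the smallest p among the genes whose groups do not overlap. Group B is in red to the left of group A in grey for each gene, and every red point of a gene lies on the same side of every grey point.

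The other genes of smallest p among those higher in group B without overlap belong to no shared pathway of the lists. SUCNR1, the cell surface receptor for succinate, had 11.7, 8.21, 18.9, 10.5 and 16.7 normalized FPKM in group B, against 8.15, 4.19, 3.22, 1.81 and 3.01 in group A. The highest control, A1, lay just under the lowest bird of group B, B2, at a log2 fold change of 1.68 ± 0.36. SCNN1G, the γ subunit of the epithelial sodium channel, had 10.9, 8.13, 13.2, 7.26 and 8.47 in group B and 4.0, 4.64, 6.78, 5.31 and 3.58 in group A, at a log2 fold change of 0.98 ± 0.22. LPIN1, a phosphatidate phosphatase that also acts as a partner of PGC-1α, had 10.9, 24.3, 6.57, 6.11 and 13.2 in group B and 3.91, 4.98, 3.79, 5.64 and 3.25 in group A. B4 and A4 differed little, and B2 was far above the rest, so that the log2 fold change of 1.5 ± 0.34 was 1.09 without B2. HSD17B11, a dehydrogenase of the lipid droplet, had 3.64, 11.6, 9.68, 4.96 and 9.83 in group B and 3.11, 2.85, 3.63, 1.34 and 3.35 in group A, at a log2 fold change of 1.46 ± 0.34. STYX, a phosphatase-like protein without catalytic activity, had 29.9, 30.5, 26.3, 26.4 and 28.2 in group B and 19.8, 15.4, 19.9, 15.8 and 19.3 in group A, at a log2 fold change of 0.64 ± 0.15. CHADL, a leucine-rich repeat protein of the matrix, had a log2 fold change of 2.16 ± 0.46 at a low level of 0.400 to 1.33 in group B and 0.0593 to 0.321 in group A. ITGB1BP1, which binds the tail of β1 integrin, and SYDE2 had log2 fold changes of 0.85 ± 0.20 and 0.83 ± 0.19. TEX14, HTR3A and LZTS3, picked after their values were seen, had p-values as small as these but overlapping groups. HTR3A, a subunit of the serotonin-gated channel, had 4.0, 2.39, 5.26, 2.64 and 7.11 in group B and 2.40, 1.22, 1.66, 0.740 and 1.06 in group A, where A1 lay just above B2.

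Among the genes lower in group B, several act at the nerve contact and in the excitable membrane. GRIP2, a scaffold that holds receptors in place with its PDZ domains, had 0.626, 0.649, 0.765, 1.34 and 0.671 normalized FPKM in group B, against 1.81, 1.94, 1.79, 2.50 and 2.04 in group A. B4 stood above the other 4 birds of its group but under every control, and the log2 fold change was -1.31 ± 0.24 (edgeR adjusted p = 0.201). CNTFR, the receptor for ciliary neurotrophic factor, had 2.52, 3.34, 1.32, 1.91 and 2.77 in group B and 5.73, 4.80, 4.96, 6.73 and 5.22 in group A, at a log2 fold change of -1.21 ± 0.24. SCN2B and SCN4B, β subunits of sodium channels, had log2 fold changes of -1.08 ± 0.26 and -0.72 ± 0.22, and KCNJ12, an inward rectifier potassium channel, one of -0.74 ± 0.25, each with overlapping groups. SCN4B and KCNJ12 were picked after their values were seen. ANK1, an ankyrin that ties the sarcoplasmic reticulum to the myofibril, had 24.6, 17.0, 28.9, 38.7 and 20.2 in group B and 36.3, 40.6, 48.1, 52.0 and 45.2 in group A, at a log2 fold change of -0.78 ± 0.22. Of 32 genes of the neuromuscular and channel list, 2 were higher and 8 lower at a nominal p under 0.05, and the same number of 2 and 8 was found without A3 and A4. Without B2, A3, A4 and A5, 3 were higher and 5 lower. The median of the list was -0.10.

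KY, a peptidase of the Z-disc whose loss causes kyphoscoliosis in mice, had 22.4, 37.2, 18.1, 15.4 and 23.0 normalized FPKM in group B, against 68.5, 51.7, 59.8, 123 and 58.8 in group A. All birds of group B lay below all birds of group A, of which A2 was the lowest and A4 the highest. PDLIM4, an adaptor between α-actinin and the Z-disc, had 4.74, 6.11, 7.15, 8.93 and 6.30 in group B and 11.4, 9.11, 14.7, 11.6 and 10.9 in group A, at a log2 fold change of -0.79 ± 0.21. CSRP2, a LIM protein of the cytoskeleton, had a log2 fold change of -0.74 ± 0.22 without overlap. Of 36 genes on the list of the Z-disc and strain, 1 was higher and 6 lower, 0 and 5 without A3 and A4, and 4 and 6 without B2, while the median with all birds was -0.02. ANKRD1, the titin-binding gene that stretch induces, had 1328, 69.1, 558, 2140 and 603 in group B and 834, 432, 527, 460.4 and 506 in group A. Its values in group B spanned the whole range of group A and beyond, and B2 was the lowest of all 10 birds.

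Energy metabolism of the fibre gave single genes of low p. PERM1, a muscle regulator of genes controlled by PGC-1 and ERR, had 15.7, 11.9, 17.2, 16.6 and 10.2 normalized FPKM in group B, against 22.7, 44.4, 18.2, 39.0 and 49.3 in group A. The controls were spread widely, with A1 and A3 close to group B, and the log2 fold change was -1.28 ± 0.27. PPARGC1A, which encodes PGC-1α and was picked after its values were seen, had 4.53, 0.799, 1.58, 1.60 and 0.978 in group B and 0.182, 1.05, 0.854, 0.386 and 0.531 in group A, so that B2 and B5 lay inside the range of the controls. PPM1K, the mitochondrial phosphatase that activates the breakdown of branched-chain amino acids, had 5.78, 7.94, 7.93, 10.0 and 5.99 in group B and 20.1, 11.0, 14.8, 17.4 and 19.2 in group A. Its groups did not overlap, its log2 fold change was -1.13 ± 0.21, and it was the only one of 22 genes of branched-chain amino acid breakdown with a nominal p under 0.05. AMPD3, an AMP deaminase, had 29.5, 29.0, 41.0, 32.2 and 25.7 in group B and 20.7, 14.1, 22.1, 10.7 and 11.2 in group A, at a log2 fold change of 1.0 ± 0.23, without overlap. AMPD1, the deaminase of skeletal muscle and also picked after its values were seen, had a log2 fold change of -0.87 ± 0.31 with 218 to 412 in group B and 368 to 1024 in group A, of which 1024 was A4. NMRK2, a muscle kinase that makes NAD from nicotinamide riboside, had 141, 77.0, 70.3, 90.4 and 90.5 in group B and 163, 182, 353, 259 and 132 in group A, at a log2 fold change of -1.21 ± 0.28 that was -0.76 without A3 and A4. PRKAB2, a regulatory subunit of AMP-activated kinase, had a log2 fold change of -0.59 ± 0.18 without overlap. PRKAB1, another of its subunits and picked after its values were seen, went the other way at 0.60 ± 0.22. The list of PPAR genes and coactivators, which holds both, had 4 of 23 genes higher and 4 lower at a nominal p under 0.05. Of 31 genes of purine, creatine and NAD metabolism, 1 was higher and 6 lower at a nominal p under 0.05, and the median was -0.27. This count was 2 and 7 without A3 and A4. GART-B is part of it at 0.0674 to 0.257 in group B and 0.306 to 1.04 in group A, and since it is a copy of the purine enzyme GART, reads may be split between them.

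In the insulin and mTOR list, 9 of 48 genes tested were higher at a nominal p under 0.05 and 3 were lower, with a median of 0.10, and the counts were 7 and 1 without A3 and A4. The study named insulin signaling for these birds, so this direction is not independent evidence. PIK3R6, a regulatory subunit of phosphoinositide 3-kinase γ, had 2.67, 6.64, 4.65, 5.37 and 4.90 normalized FPKM in group B and 10.4, 10.5, 17.2, 19.7 and 8.64 in group A, and its groups did not overlap. IRS2, an adaptor of the insulin receptor, had 4.20, 8.01, 5.36, 3.54 and 2.65 in group B and 1.60, 0.935, 4.14, 1.30 and 1.12 in group A, where A3 alone lay inside the range of group B. Without A3 and A4, its log2 fold change of 1.38 ± 0.41 was 1.97. TSC1, which restrains mTOR, had 9.21, 8.63, 7.99, 8.73 and 7.24 in group B and 6.95, 5.90, 3.70, 4.20 and 5.55 in group A, without overlap. IGF1R, the receptor for insulin-like growth factor and picked after its values were seen, had 2.15, 1.85, 2.85, 2.11 and 2.48 in group B and 1.78, 1.59, 0.721, 0.685 and 1.65 in group A, at a log2 fold change of 0.82 ± 0.28 that was 0.46 without A3 and A4. IGF2BP3, which binds the mRNA of insulin-like growth factor 2, had 1.18, 0.692, 0.581, 0.570 and 1.03 in group B and 0.375, 0.465, 0.371, 0.274 and 0.418 in group A, at a log2 fold change of 1.08 ± 0.29. SOCS3, an inhibitor of cytokine signaling picked after its values were seen, had 5.71, 2.77, 4.42, 2.87 and 2.70 in group B and 13.8, 2.35, 39.6, 2.28 and 6.35 in group A, where A1 and A3 were high.

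The enzymes of carnosine and its precursors, and the transporters, had overlapping groups in all members but PANK1. CARNS1, carnosine synthase, on chromosome 5 from 205432 to 212376, had 99.8, 74.3, 81.7, 63.1 and 70.8 normalized FPKM in group B, against 100.1, 89.5, 111, 72.1 and 72.9 in group A. The groups overlapped over most of their range, and the log2 fold change was -0.19 with a 95% interval of -0.60 to 0.21, which includes 0. GADL1, an enzyme that forms β-alanine from aspartate in mice, had 55.7, 37.1, 17.4, 65.2 and 27.3 in group B and 82.7, 187, 31.3, 106 and 93.5 in group A. Its log2 fold change of -1.30 ± 0.43 (edgeR adjusted p = 0.456) was -1.58 without A3 and A4 and -1.70 without the 4 libraries, and A3 was the only control inside the range of group B. CARNMT1, which methylates carnosine to anserine, had 7.62 to 12.4 in group B and 8.41 to 11.6 in group A. CNDP2, a cytosolic dipeptidase, had 11.7 to 14.9 in group B and 10.6 to 20.1 in group A. CNDP1, the carnosinase of serum, was not tested, with at most 0.102 in any bird. SLC6A6, the transporter of taurine and β-alanine, was low, at 1.64, 1.43, 1.31, 1.34 and 2.21 in group B and 1.39, 1.22, 0.992, 0.966 and 1.67 in group A, at a log2 fold change of 0.34 with a 95% interval of -0.12 to 0.80. ABAT, a transaminase that degrades β-alanine, had 3.30 to 9.62 in group B and 3.40 to 5.97 in group A. PANK1, a kinase of the coenzyme A pathway, for which β-alanine is a building block of pantothenate in microbes and plants, had 2.24, 3.10, 1.85, 2.64 and 2.89 in group B and 1.69, 1.46, 1.63, 0.524 and 0.911 in group A and a log2 fold change of 1.02 ± 0.29, without overlap. Of 15 genes tested on the carnosine list, 1 was higher and 1 lower, PANK1 and GADL1 (6.67% each way, near the 4.19% and 5.57% of all genes). Of 16 transporters, 0 were higher and 1 lower (6.25%). This was SLC38A4, a carrier of neutral amino acids with 0.318 to 1.34 in group B and 0.682 to 2.44 in group A.

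**Figure D4:**
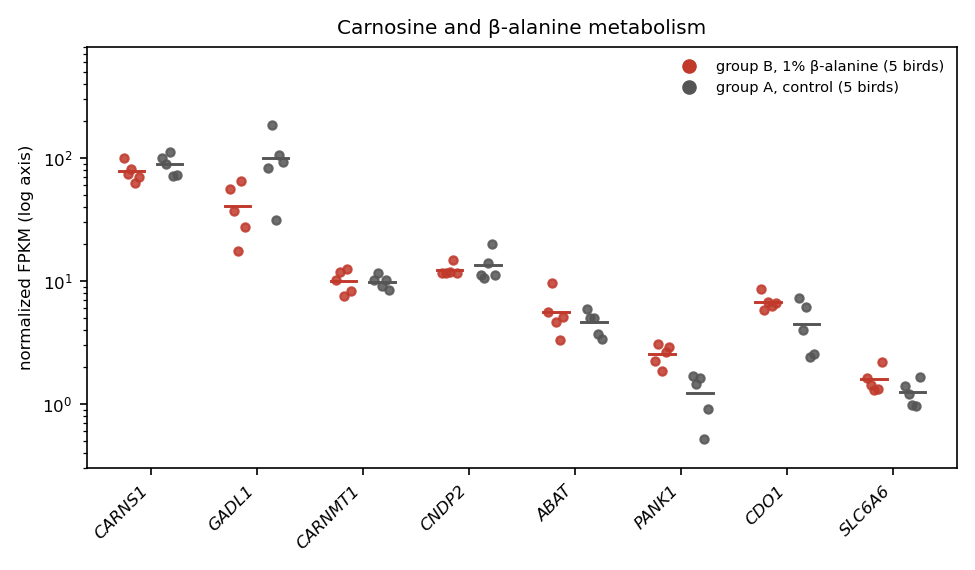
Normalized FPKM (log axis) of 8 genes of carnosine and β-alanine metabolism in each bird, with group B in red to the left of group A in grey and a bar at each group's mean. CARNS1 lies between 63.1 and 111 in all 10 birds, whereas GADL1 spans 17.4 to 65.2 in group B and 31.3 to 187 in group A.

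Around pyruvate and fuel choice, PDHX, the component that holds the pyruvate dehydrogenase complex together, had 2.98, 3.03, 2.63, 4.29 and 2.54 normalized FPKM in group B, against 5.44, 5.56, 4.78, 5.02 and 3.78 in group A. PDP1, the phosphatase that switches the complex on, had 20.3, 35.4, 13.4, 25.7 and 15.5 in group B and 42.1, 37.3, 30.6, 41.5 and 24.3 in group A, and B2 and B4 lay among the controls. Their log2 fold changes were -0.67 ± 0.18 and -0.67 ± 0.26, opposite in sign to that of PDK4 above. Of 13 genes of this list, 1 was higher and 2 lower at a nominal p under 0.05, and 0 and 1 without A3 and A4. UCP3, an uncoupling protein of muscle mitochondria, had 845, 855, 352, 620.0 and 453 in group B and 487, 492, 345, 354 and 109 in group A, at a log2 fold change of 0.81 ± 0.36 that was 0.22 without the 4 libraries. Fatty acid oxidation gave 2 genes higher and 2 lower of 32 (6.25% each way, near the shares of all genes), and 0 and 0 without A3 and A4. Glycogen metabolism with the glucose phosphatases gave 0 higher and 4 lower of 26, with 0 and 3 without these libraries. STBD1, which anchors glycogen to membranes, had 322, 376, 330.5, 454 and 296 in group B and 454, 499.7, 424, 956 and 556 in group A, of which A4 was the highest.

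Clock genes were split between the directions. CIART, a repressor of the circadian clock, had 3.79, 3.98, 4.0, 5.76 and 2.58 normalized FPKM in group B, against 7.37, 6.51, 13.6, 11.1 and 6.94 in group A, without overlap. NFIL3, a repressor of clock output, had 6.19, 14.0, 3.74, 3.98 and 7.78 in group B and 3.75, 3.09, 2.82, 0.960 and 2.93 in group A, at a log2 fold change of 1.39 ± 0.39 that was 0.99 without B2. CRY1 and ARNTL, of the negative and the positive arm of the clock, had log2 fold changes of 0.73 ± 0.23 and 0.86 ± 0.34, and BHLHE40 and NR1D1, which repress, had -0.66 ± 0.19 and -1.06 ± 0.44. ARNTL was picked after its values were seen. NR1D1 moved to -0.27 without A3 and A4, as A3 held 108 normalized FPKM. Of 23 clock genes tested, 3 were higher and 4 lower at a nominal p under 0.05, and 2 and 2 without A3 and A4. None of the sources used here gives the hour of sampling, and its part in these values was not tested.

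In the extracellular matrix, several genes that process collagen were lower in group B. SERPINH1, the chaperone of collagen in the endoplasmic reticulum, had 19.6, 17.3, 23.8, 30.2 and 29.9 normalized FPKM in group B, against 37.5, 37.4, 31.8, 41.3 and 44.5 in group A, without overlap. With library totals in place of RLE, B4 and B5 lay among the controls. PLOD1, a lysyl hydroxylase of collagen, had 17.7, 17.1, 14.7, 15.9 and 17.5 in group B and 45.7, 20.1, 16.1, 38.4 and 22.3 in group A, where A1 and A4 were high. PXDNL and VASN, each low in expression, had 0.251 to 0.431 and 0.664 to 1.07 in group B and 0.434 to 1.06 and 1.37 to 2.27 in group A. ADAMTS15, a protease of proteoglycans, had 2.79, 2.40, 2.99, 2.19 and 3.29 in group B and 6.64, 5.15, 4.61, 3.70 and 6.83 in group A, at a log2 fold change of -0.98 ± 0.20. Of 30 genes of collagen maturation, 1 was higher and 5 lower (16.7%) at a nominal p under 0.05. The higher gene was LOXL4, at a log2 fold change of 1.05 ± 0.35. The median of the list was -0.05 beside -0.02 for all genes, and 12 of the 30 had a positive log2 fold change. Of 27 collagen chains tested by edgeR, 0 were higher and 2 lower (7.41%, near the 5.57% of all genes). Without A3 and A4, the counts were 1 and 3 for collagen maturation and 0 and 3 for the chains. DESeq2 called 1 gene of the collagen chain list higher and 0 lower. LOC107051274, a collagen alpha-2(IV) chain-like gene that the paper reports as upregulated, had few reads. Its read counts were 29, 128, 24, 14 and 3 in B1 to B5 and 0, 4, 5, 3 and 7 in A1 to A5. COL1A1 and COL3A1, the main chains of muscle connective tissue, had 29.3 to 58.2 and 93.5 to 140.4 in group B and 30.8 to 89.6 and 69.2 to 199 in group A. In bulk muscle, fewer cells of a type and less RNA per cell cannot be told apart. Fibroblast markers summed to 219 to 362 in group B and 183 to 486 in group A, with 0 of 9 at a nominal p under 0.05, and their part in these values was not tested.

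BMP4, a growth factor of the TGF-β family, had 7.74, 7.26, 9.07, 6.01 and 9.24 normalized FPKM in group B and 3.74, 4.56, 4.94, 4.05 and 6.48 in group A, with A5 above B4. HEYL, a target of Notch, had 2.26, 1.25, 1.52, 2.34 and 1.62 in group B and 6.75, 2.95, 3.04, 7.07 and 2.92 in group A, at a log2 fold change of -1.33 ± 0.32, without overlap. HES1, another Notch target, had 49.3, 27.7, 29.8, 53.8 and 26.9 in group B and 81.9, 44.2, 121, 85.8 and 25.7 in group A, and its log2 fold change of -0.93 ± 0.36 was -0.43 without A3 and A4. The list of BMP, TGF-β and Notch genes had 4 members higher and 4 lower of 47 tested, and 4 and 6 without A3 and A4. With all birds this was 8.51% each way, beside 4.19% higher and 5.57% lower for all genes. Smooth muscle markers were lower at 2 of 10, TAGLN and ACTA2, and summed to 64.7 to 125 in group B and 91.1 to 166 in group A.

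Chaperones and antioxidant enzymes were lower in group B in single members. Of 27 chaperone genes tested, 0 were higher and 6 lower at a nominal p under 0.05, with a median of -0.21, and 0 and 4 were so without A3 and A4. HSPA5, the chaperone of the endoplasmic reticulum, had 28.1, 29.9, 36.8, 33.2 and 30.7 normalized FPKM in group B and 48.3, 42.3, 28.6, 59.5 and 62.1 in group A, so that A3 alone lay among group B. HSPA8 had 224, 204, 387, 457 and 157 in group B and 412, 403, 423, 679.5 and 444 in group A. HSPB1, a small heat shock protein of muscle, had 709, 918, 1129, 1059 and 983 in group B and 1435, 933, 3572, 2763 and 806 in group A, and its log2 fold change of -0.99 ± 0.37 was -0.14 without A3 and A4. OSGIN1, a growth inhibitor that oxidative stress induces, had 2.06, 2.77, 1.95, 3.21 and 2.48 in group B and 5.94, 4.57, 3.23, 7.84 and 4.60 in group A, at a log2 fold change of -1.07 ± 0.24. Its groups did not overlap, but B4 and A3 nearly met. GSTT1, a glutathione transferase, had 4.86, 5.36, 10.8, 9.84 and 8.41 in group B and 16.9, 18.9, 33.0, 11.3 and 14.7 in group A, and TST, a mitochondrial sulfurtransferase, had 38.6, 32.3, 26.6, 37.0 and 28.0 in group B and 46.0, 53.2, 48.1, 63.1 and 42.8 in group A, both without overlap. Of 45 antioxidant genes, 1 was higher (2.22%, beside 4.19% of all genes) and 4 lower (8.89%, beside 5.57%), with a median of -0.15. Without A3 and A4, the counts were 1 and 3 and the median was 0.04. Without B2, the counts were 0 and 6.

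The lists of respiratory, ribosomal and glycolytic genes had negative medians with all 10 birds, and these depended on A3 and A4, the 2 libraries with a surplus of short genes. Of 41 genes of respiratory complex I, 6 were lower at a nominal p under 0.05 and 0 higher, with a median log2 fold change of -0.31. Without A3 and A4, 0 were lower and 2 higher, and the median was 0.03. Complexes II to V gave 7 lower and 0 higher of 40 with a median of -0.39, against 1 and 1 with a median of -0.02 without these libraries. The median of 74 mitochondrial ribosomal proteins was -0.31 with all birds and 0.11 without them. For 72 cytosolic ribosomal proteins, 1 was lower and 0 higher with all birds, whereas 14 were higher and 0 lower without A3 and A4, and the median was 0.19 in place of -0.13. Glycolysis had 1 gene higher and 6 lower of 25, with a median of -0.26, and 0 higher and 1 lower with a median of -0.06 without A3 and A4, while leaving out B2 gave 0 and 3. PGAM1, a glycolytic mutase, had 5275, 6565, 5315, 6705 and 4498 normalized FPKM in group B and 7059, 7507, 11265, 14642 and 7539 in group A, without overlap, and its log2 fold change of -0.76 ± 0.24 was -0.37 without A3 and A4. G6PC3, a glucose-6-phosphatase, had 11.5, 14.0, 14.6, 15.0 and 14.6 in group B and 22.4, 14.5, 35.1, 47.3 and 27.1 in group A, so that A2 lay among group B and A3 and A4 were the highest birds.

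**Figure D5:**
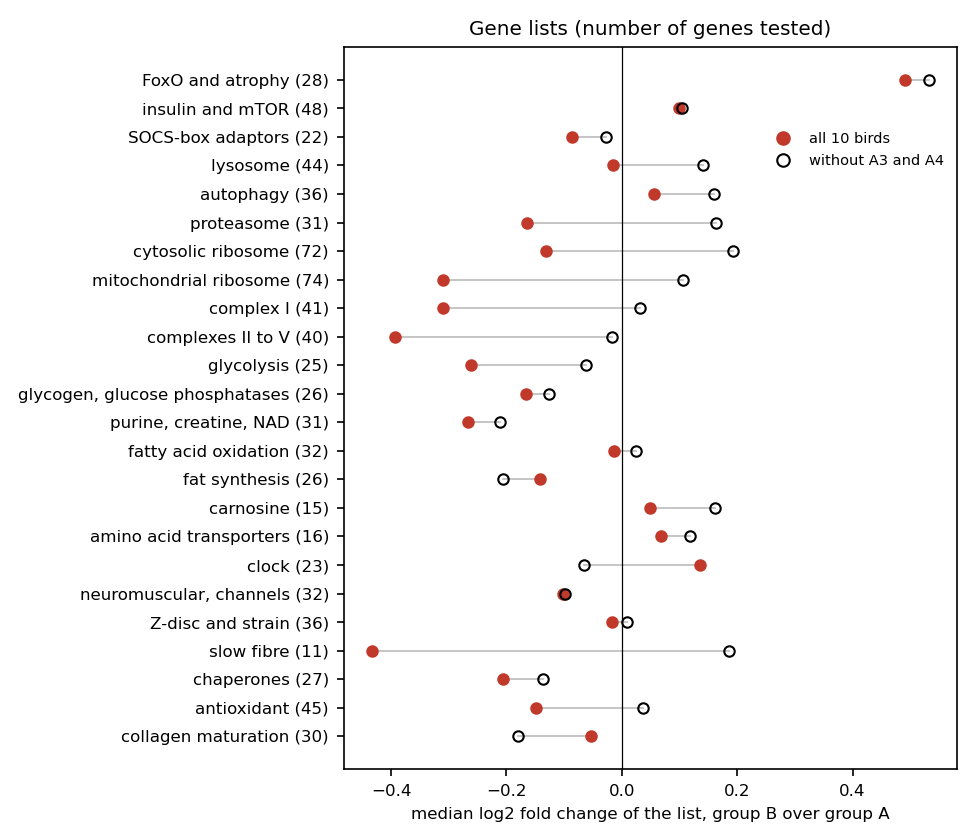
Median log2 fold change of group B over group A for 24 gene lists (rows, with the number of genes tested), with all 10 birds (filled red) and without A3 and A4 (open circles). The vertical line is at 0, and the lists of respiratory complexes, ribosomal proteins and glycolysis lie left of it with all birds and at or right of -0.06 without A3 and A4.

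The 4 slow fibre genes with a nominal p under 0.05 (MYH7B, TNNT1, TNNI1 and ATP2A2) had their highest values in A3 and A4. TNNI1, the slow skeletal troponin I, had 0.506, 0.968, 0.226, 0.881 and 0.234 normalized FPKM in group B, against 0, 0.190, 23.4, 2.48 and 0.927 in group A, and MYH7B, a slow myosin heavy chain, had 0.0764, 0.401, 0.360, 0.549 and 0.997 in group B and 0.398, 0.163, 17.4, 1.62 and 0.502 in group A. A3 stood far above all other birds for both, with A4 next. The slow fibre list had 4 of 11 genes lower with a median of -0.43, which was -0.60 to -0.37 with any 1 bird left out, and 0 lower with a median of 0.19 without A3 and A4. Fast myosin MYH1E had 5665, 5702, 4709, 7693 and 4793 in group B and 8001, 7412, 8093, 10945 and 6487 in group A, at a log2 fold change of -0.52 ± 0.21, but fast myosin heavy chains are near copies of each other, and reads may be split between them. MSTN, myostatin, had 28.8 to 70.7 in group B and 31.5 to 70.2 in group A. MYOG, a factor of muscle differentiation, had 2.17, 0.737, 3.22, 4.13 and 2.61 in group B and 1.77, 5.83, 5.50, 8.31 and 5.29 in group A, with A1 the lowest control.

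Among genes of fat cells, PLIN1 and FABP4 were highest in A5, whereas the genes of fat synthesis named here were higher in several controls than in group B. PLIN1, the coat protein of the fat droplet, had 0.184, 0.428, 0.164, 0.140 and 0.920 normalized FPKM in group B, against 0.216, 0.603, 6.52, 1.78 and 43.9 in group A, and FABP4, the fatty acid carrier of fat cells, had 3.69, 2.65, 6.94, 3.36 and 17.3 in group B and 3.21, 12.7, 34, 11.8 and 229 in group A. With all birds, 2 of 8 fat cell markers were lower (25%) and 0 higher at a nominal p under 0.05. All 8 had a negative log2 fold change, with a median of -0.50. Without A3 and A4, 2 were lower and 0 higher, and the median was -0.66. Without B2, A3, A4 and A5, the log2 fold changes of PLIN1 and FABP4 were -0.21 and -0.02, and the fat cell markers gave 0 of 8 in either direction at a nominal p under 0.05. MFSD2A, a transporter of lysophospholipids, had 1.01, 0.894, 1.74, 1.12 and 1.24 in group B and 2.66, 2.46, 1.71, 3.68 and 3.28 in group A, with B3 and A3 as the birds that met. FADS2, a fatty acid desaturase, had 2.01, 1.70, 1.65, 2.34 and 2.33 in group B and 4.30, 3.20, 3.81, 1.97 and 4.33 in group A, where A4 was as low as group B. INSIG1, a sterol sensor, had 7.72, 6.56, 7.96, 8.61 and 5.36 in group B and 12.8, 12.3, 7.13, 10.3 and 16.5 in group A. Of 26 genes of fat synthesis, 0 were higher and 6 lower, with a median of -0.14. Without the 4 libraries, 0 were higher and 3 lower, with a median of -0.26.

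Immune cell markers had positive log2 fold changes in 16 of 16 genes tested, with a median of 0.58 and 4 at a nominal p under 0.05. This count was 1 without B2, 1 without A3 and A4 and 1 without all 4 libraries. CD3D, a chain of the T cell receptor complex, had 8.88, 10.5, 11.0, 5.06 and 9.41 normalized FPKM in group B and 5.18, 4.15, 7.97, 6.38 and 5.20 in group A, and CD3E had 3.72, 2.31, 3.28, 3.20 and 3.63 in group B and 2.95, 1.60, 2.38, 1.43 and 2.15 in group A. The summed level of the markers was 243 to 425 in group B and 116 to 375 in group A, which overlapped widely, with A2 the lowest bird of all. Whether immune cell content bears on the other genes was not tested.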

How the data were processed

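Poly(A) RNA of the left breast muscle was sequenced as paired reads, with 1 bird per library. Per the labels, the authors' pipeline was cutadapt 1.9.1 for trimming, HISAT2 2.0.1 for alignment (GRCg6a build) and HTSeq 0.6.1 for counting, and the deposited count table holds whole numbers of reads per gene. The authors' FPKM columns divide these numbers by exonic length and library total, and they served only in 1 filter alternative here. Whether strand was used, and how reads with several positions were treated, is not stated, so overlapping genes and near copies may share reads.

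Genes kept by filterByExpr (minimum count 10) were fitted in R 4.3.3 by edgeR 4.0.16 with RLE scaling, without covariates and without robust fitting. The standard error of each log2 fold change was derived from its F statistic, and intervals cover 95%. As alternatives, DESeq2 1.42.0, limma 3.58.1, other scalings and filters, offsets of 0.1 and 1 on log2 FPKM, and fits with birds left out were run. Depth was 10620229 to 15381547 counts per bird, and the errors given cover the spread between birds.

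The gene lists, their members and the alternatives were chosen with earlier results of these data known. Lists are described by counts and medians, without a set test. Some genes belong to several lists, such as KLHL24 (FoxO and Kelch) and PDK4 (FoxO and pyruvate dehydrogenase), so list counts partly repeat the same genes. Named genes are, in each direction, the 15 of smallest p whose groups do not overlap, genes that the paper names for β-alanine, up to 4 members of each list by p or by level, and cell type markers. Genes outside this rule are said to be picked after their values were seen. Chromosome names were looked up by symbol in a RefSeq table of another build, while start and end are those of the deposited table (GRCg6a, 1-based). The planned search for promoter motifs was not run, as no sequence was at hand. The paper reports qPCR of FOXO1, IGF2BP3, PDE10A, GRIP2 and PPM1K, with the same direction as its RNA-Seq in both supplemented groups. These qPCR values were not analysed here.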

Additional observations from a re-analysis of the deposited data

Results flagged for a closer look

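In 76 groups of 5 birds, the highest or the lowest bird was set against Dixon's limit (a gap of more than 0.71 of the range, on log2 values), which chance passes in about 5% of groups. The groups were the birds of each diet, for genes named here by their p or by the paper and for sums of marker lists. Many were chosen with the values known and all share the same birds, so the number that passed cannot be set against that 5%. 10 groups passed. ABCC5 had 16.4 normalized FPKM in B2, against 6.05 to 7.42 in the other birds of group B, and GRIP2 had 1.34 in B4, against 0.626 to 0.765 in the others of its group. HSD17B11 had 1.34 in A4, against 2.85 to 3.63 in the other controls.

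The remaining groups were sums of cell type markers. In group B, the Schwann cell markers summed to 35.9 in B5, against 12.1 to 15.5 in the other birds, and the erythrocyte markers to 45.6 in B2, against 112 to 152. In group A, A4 held the highest sum of fast fibre markers (150451, against 94627 to 103111) and of smooth muscle markers (166, against 91.1 to 107), A5 the highest sum of fat cell markers (377, against 60.5 to 98.8), A3 the highest sum of Schwann cell markers (22.0, against 14.3 to 16.0) and A2 the lowest sum of immune cell markers (116, against 309 to 375). The sums depend on the RLE scaling, under which A4 had the smallest library size (0.528 of the mean). They were not recomputed with library totals, so the sums of A4 do not show that it held more of these cells.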

How the results depend on the processing

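The count of 0 called genes held with TMM, upper quartile and library total scaling, with the 3 filters, limma-voom, limma on log2 FPKM with offsets of 0.1 and 1, robust fitting, all 15 birds, the gene length trend removed (added after seeing the data), and adjusted p limits of 0.05 alone and 0.10. DESeq2 called 75 genes and limma-voom with a weight per library 13. Leaving out 1 bird gave 0 to 2 calls: TEX14 without B2, ASB2 without B3, and GRIP2 and PDE10A without B4. The number of genes at a nominal p under 0.05 was 713 to 1572 with 1 bird left out, with the lowest without B1 and the highest without A2. It was 874 without A3 and A4 and 717 without B2, A3, A4 and A5 (added after seeing the data). The share of lower genes among them was 57.0% with RLE, 15.3% with library totals, 51.8% with upper quartile scaling and 49.9% with limma-voom. With genes of a mean count of at least 100, 149 genes had groups that did not overlap.

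No source used here says that the replicate numbers pair the birds, which come from separate cages. The deviations of same-numbered birds correlated at -0.15 to 0.32, 3 of 5 pairs were over 0.1, and 2 birds of group B correlated best with their own number. With 5 pairs, these values cannot decide whether birds of the same number shared conditions. With the replicate block, 0 genes were called and 1067 had a nominal p under 0.05 (535 higher and 532 lower).

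Only 60 of the genes named in this report were recomputed under these alternatives, and 1616 of their 1617 values kept their direction. This count does not cover the other named genes, such as MYH7B, TNNI1 or ALB. CARNS1 had a log2 fold change of 0.011 with library totals. Of 588 list medians under other scalings or with 1 bird left out, 38 moved by more than 1 SD between birds; the cause was not tested.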

Other observations

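Transcripts of liver and plasma proteins were found in B2. Of 11 genes tested on a liver list written after the values were seen, 11 were higher in group B at a nominal p under 0.05 and 0 of them without B2. ORM1, an acute-phase protein, had 0.574, 464, 3.29, 0 and 4.85 normalized FPKM in group B and 0.482, 2.95, 2.29, 3.21 and 0.515 in group A, and ALB, serum albumin, had 0.224, 48.9, 0.574, 0.0388 and 0.922 in group B and 0.324, 1.96, 0.864, 0.239 and 0.235 in group A. The sum of the list was 1528 in B2, against 4.48 to 30.2 in the other birds of group B and 8.90 to 23.0 in group A. BMP7, a growth factor, and IGLL1, an immunoglobulin light chain gene, were picked after their values were seen. BMP7 had 6.0 in B2 and at most 1.26 in the other birds of group B, and IGLL1 had 1.75, 18.5, 1.64, 3.16 and 0.785 in group B and 0.369, 0.671, 0.738, 1.01 and 1.17 in group A. How these transcripts came into the library was not tested.

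Genes that glucocorticoids and fasting are known to induce were listed after the values were seen. The list shares members with the FoxO list, KLF15 among them, so the counts of these lists are not separate observations. Of 19 tested, 6 were higher and 1 lower at a nominal p under 0.05, with a median log2 fold change of 0.48, and 1 and 1 without B2, A3, A4 and A5, where the median was 0.22. FKBP5, a co-chaperone of the glucocorticoid receptor, had 174, 159, 98.4, 117 and 129 normalized FPKM in group B and 116, 70.5, 65.4, 9.83 and 21.2 in group A, so that A1 was the only control inside the range of group B. TSC22D3, the glucocorticoid-induced leucine zipper, had 119, 163, 75.5, 117 and 116 in group B and 73.1, 48.4, 116, 52.1 and 45.3 in group A, and GLUL, glutamine synthetase, had 293, 620.3, 148, 232 and 217 in group B and 313, 51.4, 357, 65.3 and 25.1 in group A. A2, A4 and A5 were the 3 lowest birds for GLUL and TRIM63, while A1 and A3 lay within the range of group B for GLUL.

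TNNC1, the troponin C of slow fibres and heart in mammals, had 6097 to 10070 normalized FPKM in group B and 7002 to 18362 in group A, far above TNNI1 and MYH7B, which had at most 0.997 in the birds other than A3 and A4. Among 4 erythrocyte genes tested, 0 had a nominal p under 0.05 with all birds and 3 were higher in group B without A3 and A4, with a median log2 fold change of 1.12.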
